A study of Mus musculus with 16 samples.

Results

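The MHC class II presentation genes are described here across 8 groups of glomerular extracts, the material enriched from the kidney for its filtering units. Of 9 genes listed (H2-Ab1, H2-Aa, H2-Eb1, Cd74, H2-DMa, H2-DMb1, H2-Oa, Ciita and Ctss), 8 had a probeset that carries only their own symbol, out of 30142 genes measured in this way. Cd74, the invariant chain, has a probeset that carries several symbols and was left out by that rule. Each measured member had 1 such probeset. The extracts came from 16 female mice, 8 C57Bl/6 wild type and 8 of the strain labelled B6.ERαKO, in which oestrogen receptor alpha is knocked out. Each genotype had 2 untreated mice and 2 mice at each of 18 hours, 6 days and 2 weeks after nephrotoxic serum from sheep, given intraperitoneally at 8 ul per g. This serum binds the glomerular basement membrane and starts a nephritis. The labels do not say in which cells the receptor is lost, nor the age of the mice. The series concerns oestrogen receptor alpha, lipid metabolism and glomerulonephritis.

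MHC class II molecules present peptides from endosomes to CD4+ T cells. Dendritic cells, macrophages and B cells can carry them, and other cells, kidney epithelium and endothelium among them, can be induced by interferon gamma to make them. The coactivator CIITA, encoded by Ciita, binds no DNA itself. It is recruited by factors that sit on the X box and the Y box of class II promoters, so that the chains, the invariant chain and the peptide-loading chaperones are transcribed together. C57BL/6 mice carry the H2-b haplotype, in which H2-Ea is not expressed, so that of the classical molecules only I-A (H2-Aa with H2-Ab1) reaches the surface.

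Values are the authors' deposited log2 values. They carry an unstated transformation, since the means of 152 genes exceed what a 16-bit scanner can give in log2, and differences are therefore in log2 units and are no folds of RNA. In bulk extracts, more cells of a type and more RNA per cell cannot be told apart. The arrays also carried discordances that touch the groups. At 18 hours Abcc3, an organic anion exporter listed among the female-biased kidney genes, which separated untreated wild type (12.85 and 12.29) from untreated knockout (5.98 and 5.92), was 13.09 in wild type replicate 1 and 6.25 in replicate 2. In knockout it was 6.50 in replicate 1 and 12.93 in replicate 2. The second array of each genotype at 18 hours thus sat with the other genotype. The mean of 8 male-biased kidney genes gave the same picture in these female mice, with wild type values of 10.19 and 8.87 untreated and 9.24 and 16.46 at 18 hours. The knockout values were 16.68 and 15.8 untreated, 15.6 and 8.89 at 18 hours and 16.93 and 12.83 at 2 weeks. Esr1, which encodes the receptor, was not lower in knockout, with group means of 7.33 to 7.59 against 6.51 to 7.19 in wild type, and whether its probeset covers the deleted part is not given in the sources used here. Havcr1, a tubule injury marker, was 7.17 and 12.77 in knockout at 2 weeks, against 13.23 and 12.56 in wild type. Labels were kept as given. Markers of podocytes, glomerular endothelium and mesangium were measured on every array, with list means of 9.19 to 11.31, 8.98 to 11.24 and 8.19 to 10.24, and the proximal tubule list mean lay between 13.13 and 16.24.

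The promoters are shown because the shared X and Y boxes are the feature that ties these genes to CIITA. RefSeq (GRCm38.p6) promoters, from 250 bases before to 50 after the annotated start, were at hand for 6 of the 8 measured members. In the first set of sequences capitals mark AAC, the start of the X box core here, and TGATTGG, the Y box with its CCAAT core read on the other strand.
H2-Aa, chr17:34287859-34287928, minus strand: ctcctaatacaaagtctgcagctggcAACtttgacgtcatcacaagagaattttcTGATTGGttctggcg
H2-Eb1, chr17:34305762-34305831, plus strand: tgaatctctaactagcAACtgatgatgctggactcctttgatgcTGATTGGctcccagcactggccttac
H2-DMb1, chr17:34153086-34153155, plus strand: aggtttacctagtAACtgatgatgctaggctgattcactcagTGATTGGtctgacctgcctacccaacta
H2-Oa, chr17:34092274-34092343, plus strand: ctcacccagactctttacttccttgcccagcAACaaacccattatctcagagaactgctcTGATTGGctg
The Ctss promoter has neither box by these letters, and its capitals mark GAAA, any pair of bases and GAAA again, a repeat of the kind bound by interferon regulatory factors.
Ctss, chr3:95526726-95526785, plus strand: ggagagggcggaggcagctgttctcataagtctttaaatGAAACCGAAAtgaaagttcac

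In the 4 promoters with both boxes, AAC began at -79, -89, -92 and -74 from the start in H2-Aa, H2-Eb1, H2-DMb1 and H2-Oa. TGATTGG began 29, 28, 29 and 29 bases after it. Both strands were searched, and TGATTGG had to start 26 to 29 bases after the first base of AAC. The pair stood in 151 of 32851 mouse promoters of this length (0.46%), against 2568 (7.82%) for TGATTGG alone. It also stood in the promoters of all 3 further class II chains in the table, H2-DMb2, H2-Ob and H2-Eb2. Neither entry of H2-DMa held it. Those entries (34122582 to 34122881 and 34125268 to 34125567) lie inside the gene's span, which begins at 34119693. The bases before that were not searched, so the absence holds for these windows only. The spaced GAAA repeat stood in 1131 promoters (3.44%), and in Ctss it began at -21. The letters and spacing were chosen after these sequences had been read, so the matches are a description.

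H2-Ab1, the I-A beta chain, is a gene of chromosome 17 (34263227 to 34269418, GRCm38.p6). Its values were 11.46 and 11.11 in untreated wild type, 11.66 and 10.81 at 18 hours, 11.49 and 11.98 at 6 days and 13.87 and 13.77 at 2 weeks. In knockout they were 10.97 and 10.99 untreated, 11.01 and 11.23 at 18 hours, 11.87 and 12.61 at 6 days and 11.09 and 12.33 at 2 weeks. The 2 wild type arrays at 2 weeks stood above the other 14. In wild type H2-Ab1 rose by 2.54 ± 0.40 (SE) from untreated to 2 weeks (limma adjusted p = 0.012), the largest change among the members.

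H2-Aa, the I-A alpha chain, had values of 7.66 and 7.59 in untreated wild type and 8.81 and 8.47 at 2 weeks. In knockout it had 7.72 and 7.43 untreated and 7.45 and 7.89 at 2 weeks, so that the knockout times overlapped while the wild type ones did not. Over 18 hours and 6 days it lay between 7.18 and 8.19 in both genotypes. The wild type rise at 2 weeks was 1.01 ± 0.22 (limma adjusted p = 0.0257).

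H2-Eb1, the I-E beta chain, followed the same course. It stood at 8.47 and 8.36 in untreated wild type and at 10.42 and 9.92 at 2 weeks, against 8.36 and 8.26 and then 7.90 and 8.93 in knockout. The knockout arrays at 2 weeks lay on either side of the untreated ones. In wild type it rose by 1.75 ± 0.35 at 2 weeks (limma adjusted p = 0.0205). Its partner H2-Ea, which this strain does not express, stayed between 4.14 and 4.78 on all arrays and was 4.34 and 4.78 in wild type at 2 weeks, a difference of 0.28 ± 0.14 from untreated that did not pass (limma adjusted p = 0.188).

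Ciita, on chromosome 16, moved at 2 weeks in wild type and showed little spread elsewhere. It was 5.72 and 5.60 in untreated wild type, 5.56 and 5.66 at 18 hours, 5.71 and 5.72 at 6 days and 6.72 and 6.56 at 2 weeks. In knockout it was 5.70 and 5.64, 5.73 and 5.65, 5.81 and 5.97, and 5.57 and 5.84 at the same times. The lower wild type array at 2 weeks, 6.56, stood above the highest of the other 14, 5.97. The rise in wild type was 0.98 ± 0.11 (limma adjusted p = 0.00596). No gene on the array had a smaller adjusted p in that comparison, but the value was tied, Irf1 (below) having the same.

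H2-DMa and H2-DMb1 encode the chains of H2-DM, which exchanges the invariant chain fragment for peptide. In wild type H2-DMa was 6.13 and 6.18 untreated and 6.78 and 7.73 at 2 weeks, and in knockout 6.13 and 6.06 and then 6.09 and 6.46. Its 2 wild type arrays at 2 weeks differed by nearly as much as the rise itself, which was 1.10 ± 0.26 (limma adjusted p = 0.0311) and 0.62 without wild type 2 weeks replicate 2. H2-DMb1 was 7.61 and 7.70 in untreated wild type, 8.24 on both arrays at 6 days and 8.68 and 8.80 at 2 weeks. In knockout it was 7.30 and 7.74 untreated, 7.97 and 9.04 at 6 days and 7.02 and 8.12 at 2 weeks. Its highest value on any array was thus in knockout at 6 days, and its lowest in knockout at 2 weeks. The wild type difference at 2 weeks, 1.09 ± 0.37, did not pass (limma adjusted p = 0.0857). H2-DMb2, a near copy of H2-DMb1 whose probeset may share signal with it, rose by 1.26 ± 0.28 (limma adjusted p = 0.027).

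H2-Oa encodes the alpha chain of H2-DO, an inhibitor of H2-DM found mainly in B cells. It had the smallest range of the members, from 3.88 to 4.49. All its values lay below the lower quartile of gene means (4.74), and on every array below H2-Ea, which this strain does not express. Its changes are therefore changes near background. At 2 weeks the wild type values were 3.99 and 4.49, which overlaps the untreated 4.03 and 3.97, and the difference of 0.24 ± 0.15 did not pass (limma adjusted p = 0.264). Without wild type 2 weeks replicate 1 it was 0.49 (limma adjusted p = 0.0144). Wherever 1 array of a pair is left out, here and below, the lone array is assumed to vary like the other groups, so a call gained in this way has no replicate check of its own.

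Ctss encodes cathepsin S, the endosomal protease that cuts the invariant chain, and lies on chromosome 3. It took another course in time. In wild type it was 5.97 and 6.10 untreated, 6.72 and 6.03 at 18 hours, 7.56 and 7.16 at 6 days and 7.33 and 7.14 at 2 weeks. In knockout it was 6.13 and 6.05, 6.05 and 6.43, 6.79 and 7.03, and 5.94 and 6.38. It was at its 2-week level by 6 days in wild type, whereas the other 7 members had their highest wild type mean at 2 weeks. The wild type rise at 2 weeks was 1.20 ± 0.24 (limma adjusted p = 0.0203).

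**Figure D1:**
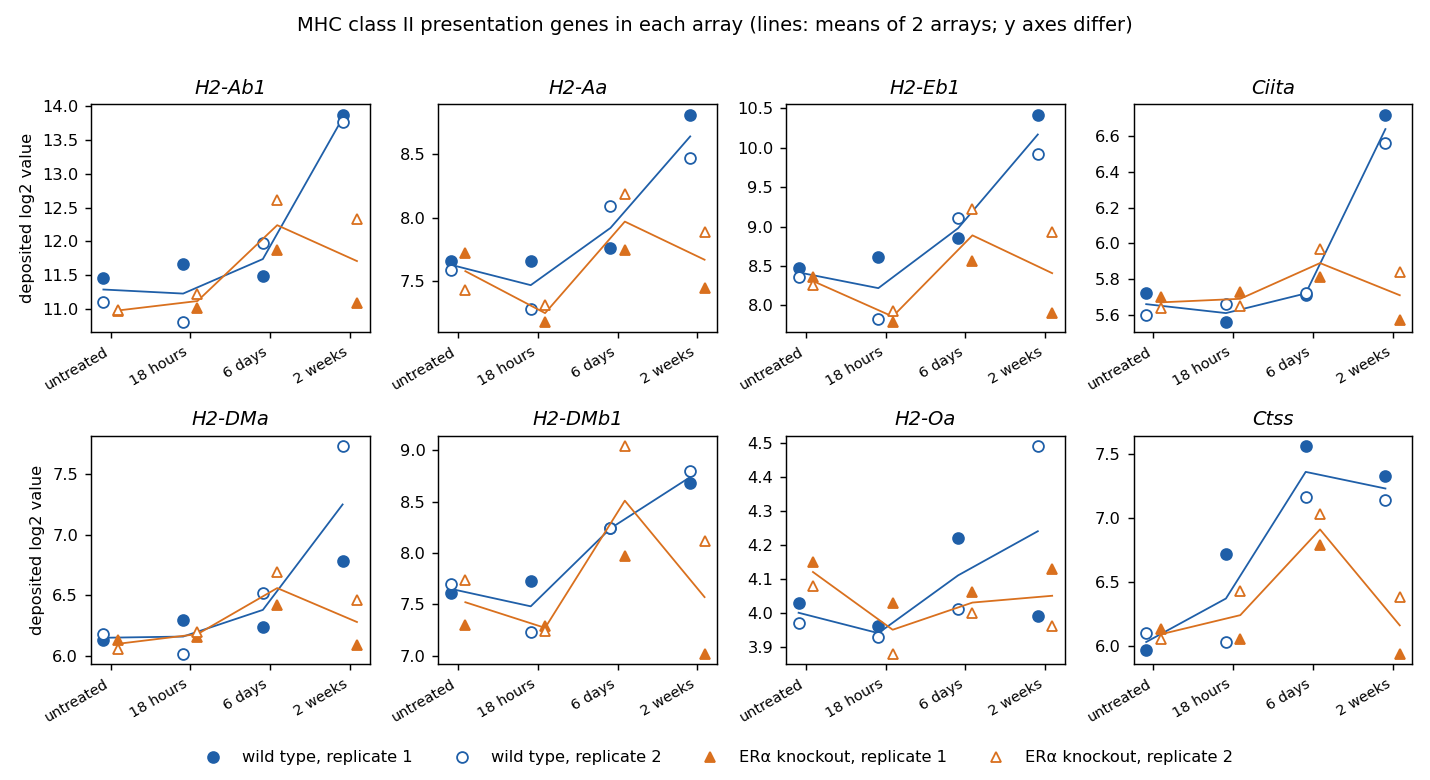
Deposited log2 value of each measured member on each of the 16 arrays, by time after nephrotoxic serum, with wild type as blue circles and knockout as orange triangles (filled, replicate 1; open, replicate 2) and lines through the means of 2 arrays. Both wild type arrays at 2 weeks stand above all others for H2-Ab1, H2-Aa, H2-Eb1, H2-DMa and Ciita, a pattern whose share over all genes was not counted. Ctss is above its untreated arrays at 6 days in both genotypes and at 2 weeks in wild type, while its knockout values at 2 weeks are 5.94 and 6.38.

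Read together at 2 weeks in wild type, 6 of the 8 measured members were called higher (limma adjusted p under 0.05) and none lower, against 4.81% of all genes called higher. The median member change was 1.09, and that of all genes was 0.13. Both wild type arrays at 2 weeks stood above both untreated ones for 7 of 8 members, a pattern met by 39.1% of all genes. The calls lean on the pair of untreated wild type arrays and on wild type 2 weeks replicate 2. Without untreated wild type replicate 1 or wild type 2 weeks replicate 2 only 1 member (Ciita) was called, and without untreated wild type replicate 2 none was, while the changes kept their sign except that H2-Oa came to -0.0033 without wild type 2 weeks replicate 2.

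In knockout at 2 weeks no member was called higher (0.109% of all genes were), and 0 of 8 had an unadjusted p under 0.05 in limma (5.44% of all genes). The change of H2-Ab1 was 0.73 ± 0.40 (limma adjusted p = 0.665), and those of the other 7 members lay between -0.07 and 0.18. Only for H2-Ab1 were both knockout arrays at 2 weeks above both untreated ones, a pattern met by 19.8% of all genes. Replicate 1 of this group was the lower one for 7 of 8 members. It had 11.09 for H2-Ab1, 7.90 for H2-Eb1 and 7.02 for H2-DMb1, where replicate 2 had 12.33, 8.93 and 8.12. Without replicate 1, the array that also lacked the Havcr1 signal, the change of H2-Ab1 was 1.34 (limma adjusted p = 0.0703) and that of H2-Eb1 was 0.62, and still no member was called.

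At 6 days no member was called in wild type (0.0% of all genes were), and 1, Ctss, had an unadjusted p under 0.05 in limma (4.58% of all genes). Its change was 1.33 ± 0.24 (limma adjusted p = 0.204). In knockout none was called either (0.0133% of all genes), and 3 had an unadjusted p under 0.05 (4.56% of all genes). These were H2-Ab1 with 1.26 ± 0.40, H2-DMb1 with 0.98 ± 0.37 and Ctss with 0.82 ± 0.24 (limma adjusted p = 0.417, 0.533 and 0.344). Both arrays at 6 days stood above both untreated ones for 6 of 8 members in wild type and 7 of 8 in knockout, against 25.3% and 23.3% of all genes. With both genotypes averaged, Ctss rose by 1.07 ± 0.17 (limma adjusted p = 0.0242), the 1 member called where 0.687% of all genes were. That call was lost without either untreated array of either genotype, either wild type array at 6 days or knockout 6 days replicate 2 (highest limma adjusted p = 0.144), with a change of 0.97 to 1.17 over all 16 omissions. From 6 days to 2 weeks in wild type, 6 of 8 members had both later arrays above both earlier ones (30.8% of all genes), and Ctss was not among them.

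At 18 hours no member was called in either genotype (0.0% of all genes in both), and 0 of 8 had an unadjusted p under 0.05 in limma, against 1.95% of all genes in wild type and 2.71% in knockout. The changes lay between -0.20 and 0.34 in wild type and between -0.44 and 0.15 in knockout. This is the time at which the second arrays sat with the other genotype by Abcc3.

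With both genotypes averaged, 6 members were called higher at 2 weeks (5.1% of all genes). These were H2-Ab1 (1.63 ± 0.29), Ctss (0.63 ± 0.17), H2-Eb1 (0.93 ± 0.25), H2-DMa (0.64 ± 0.18), H2-Aa (0.55 ± 0.15) and Ciita (0.51 ± 0.08), with limma adjusted p from 0.0123 to 0.0497. H2-DMb1 had 0.56 ± 0.26 (limma adjusted p = 0.172) and H2-Oa had 0.09 ± 0.10. These averages join larger changes in wild type with smaller ones in knockout, where no member was called. The changes in wild type and knockout were 2.54 and 0.73 for H2-Ab1, 0.98 and 0.04 for Ciita, 1.01 and 0.09 for H2-Aa and 1.20 and 0.07 for Ctss. The average is thus no measure of a rise shared by both genotypes. Without both second 18-hour arrays 3 were called, H2-Ab1, Ciita and Ctss.

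The comparison of knockout with wild type asks how class II levels differed between the genotypes at each time. Before serum no member was called lower (0.0% of all genes), 0 had an unadjusted p under 0.05 in limma (2.85% of all genes), and the differences lay between -0.30 and 0.12. Nor was any called lower at 18 hours (0.0% called, 0 members and 0.604% of all genes at the unadjusted threshold). There the second array of each genotype sat with the other genotype, and the labelled difference of Abcc3 was 0.05 ± 2.03. The 18-hour comparison therefore cannot decide whether the genotypes differed. None was called lower at 6 days either (0.0% called, 0 members and 2.96% of all genes). At 6 days 5 of 8 members had the higher mean in knockout, with the largest difference in H2-Ab1 (0.50 ± 0.40), and Ctss had -0.46 ± 0.24.

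At 2 weeks Ciita was lower in knockout by 0.93 ± 0.11 (limma adjusted p = 0.0231), the 1 member called where 0.146% of all genes were called lower. No gene had a smaller adjusted p, but the value was tied, Irf1 (below) having the same, so it does not rank Ciita first. For 7 of 8 members both wild type arrays stood above both knockout arrays (22.8% of all genes), and 7 of 8 had an unadjusted p under 0.05 with knockout lower (12.1% of all genes). The differences were -2.11 ± 0.40 for H2-Ab1, -1.76 ± 0.35 for H2-Eb1, -1.17 ± 0.37 for H2-DMb1, -1.07 ± 0.24 for Ctss, -0.98 ± 0.26 for H2-DMa and -0.96 ± 0.22 for H2-Aa, with limma adjusted p from 0.0733 to 0.157. H2-Oa had -0.19 ± 0.15 (limma adjusted p = 0.454). The call of Ciita was lost in 10 of 16 omissions of 1 array. Those were each untreated and each 6-day array of both genotypes, wild type 2 weeks replicate 2 and knockout 2 weeks replicate 1, with limma adjusted p up to 0.186 and a difference of -1.07 to -0.80. Leaving out knockout 2 weeks replicate 2 keeps only the array that lacked the Havcr1 signal, and the difference of H2-Ab1 was then -2.73. Without replicate 1 instead it was -1.50. The difference of H2-DMa was -1.45 without wild type 2 weeks replicate 1. The difference of H2-DMb1 was -0.62 without knockout 2 weeks replicate 1, and that of H2-DMa was -0.50 without wild type 2 weeks replicate 2.

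**Figure D2:**
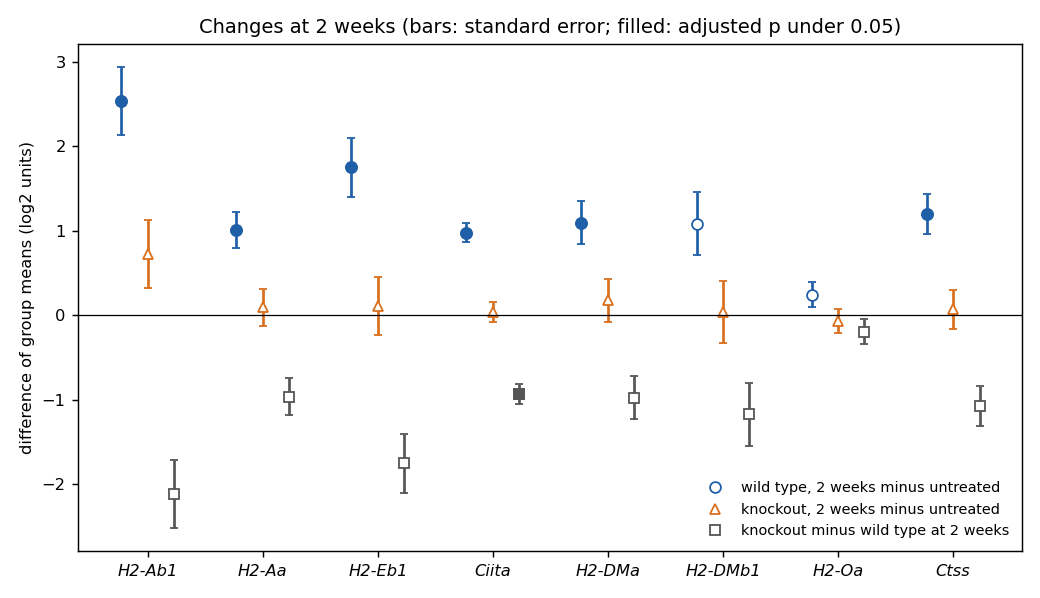
Difference of group means in deposited log2 units for each member at 2 weeks, with standard errors from the limma fit, for wild type (blue circles) and knockout (orange triangles) against their own untreated arrays and for knockout against wild type (grey squares). Filled symbols have an adjusted p under 0.05: 6 wild type changes and the genotype difference of Ciita.

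Whether the response itself differed was tested by the difference of the 2 responses. At 2 weeks no member passed (0.0% of all genes called), and 6 of 8 had an unadjusted p under 0.05 in limma, with the smaller response in knockout (5.29% of all genes). Ciita had the smallest p of the members, with -0.94 ± 0.16 (limma adjusted p = 0.431). H2-Ab1 had -1.81 ± 0.57 and H2-Eb1 had -1.64 ± 0.49 (limma adjusted p = 0.639 for both). Without knockout 2 weeks replicate 2 the difference of H2-Ab1 was -2.43, and without replicate 1, the array that lacked the Havcr1 signal, it was -1.19. That of H2-DMa was -1.40 without wild type 2 weeks replicate 1. Averaged over the 4 times, knockout minus wild type called no member (0.0% of all genes), with 5 of 8 at an unadjusted p under 0.05 in limma (6.89% of all genes) and differences from -0.58 (H2-Eb1) to -0.04 (H2-Oa). Without knockout 2 weeks replicate 2 that average gave -0.66 for H2-Ab1, and without replicate 1 it gave -0.35. Without both second 18-hour arrays it called 1, Ctss.

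The members varied together over the 16 arrays. The correlation of each with the mean of the other members was 0.966 for H2-Eb1, 0.951 for H2-Ab1, 0.949 for H2-Aa, 0.888 for H2-DMb1, 0.87 for Ciita, 0.86 for H2-DMa, 0.754 for Ctss and 0.411 for H2-Oa. These are descriptions over arrays that share 8 groups, and the wild type arrays at 2 weeks weigh in all of them. Of 17002 other genes, those most like the mean of the members were Parp14 (0.957), Cenpf (0.954), H2-DMb2 (0.953), Mybl1 (0.95), Tnc (0.949) and Lpcat2 (0.949). All 6 had their wild type mean at 2 weeks above the untreated one, as Parp14, an ADP-ribosyltransferase, did with 7.21 and 8.61. This follows from their choice by likeness to a mean that was itself highest in the wild type arrays at 2 weeks.

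Genes around the members in the pathway were counted in the same comparisons, beginning with wild type at 2 weeks, where 4.81% of all genes were called higher. Of 4 other class II chains measured, 2 rose, H2-DMb2 (above) and H2-Eb2 by 0.43 ± 0.11 (limma adjusted p = 0.0435). H2-Ob, the beta chain of H2-DO, had 0.16 ± 0.14. Of 7 subunits of the factors on the X and Y boxes 0 were called. Nfyc, a subunit of the Y box factor, had -0.87 ± 0.27 and Rfxank, of the X box factor, had -0.41 ± 0.16. In knockout minus wild type at 2 weeks none of the 7 was called either (0.146% of all genes called lower). The smallest p-values there were those of Rfx5, of the X box factor, with -0.62 ± 0.11, and Nfyc with 0.22 ± 0.27 (limma adjusted p = 0.0682 and 0.654). With both genotypes averaged at 6 days Nfyc fell by 1.06 (limma adjusted p = 0.0389), where 0.202% of all genes were called lower. Of 9 genes of endosomal processing and turnover 0 were called in wild type at 2 weeks, and Ctsh, an aminopeptidase of lysosomes, had -1.14 ± 0.34 and Marchf8, a ubiquitin ligase, had -0.46 ± 0.15. With both genotypes averaged at 2 weeks Ctsh fell by 0.91 (limma adjusted p = 0.0418), where 4.24% of all genes were called lower. Cathepsin S thus moved the other way from Ctsh.

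Of 8 genes of interferon gamma signalling, upstream of Ciita, 2 rose in wild type at 2 weeks (4.81% of all genes). Irf1, a transcription factor induced by interferon gamma, had 6.40 and 6.34 untreated and 7.56 and 7.39 at 2 weeks, a rise of 1.10 ± 0.12 (limma adjusted p = 0.00596). In knockout at 2 weeks it had 6.19 and 6.53, and it was called lower than in wild type there by 1.11 ± 0.12 (limma adjusted p = 0.0231). Ifngr1, the ligand-binding receptor chain, rose by 1.49 ± 0.29 in wild type (limma adjusted p = 0.0194). Of 6 costimulation genes 2 rose, Cd40 by 0.48 ± 0.11 and Cd86 by 0.42 ± 0.10. Of 15 genes of class I presentation, the route for cytosolic peptides, 8 rose, with B2m at 1.82 ± 0.48, H2-D1 at 1.30 ± 0.29, Tap1 at 1.25 ± 0.25 and H2-K1 at 1.06 ± 0.29. None of these class I genes was called between genotypes at 2 weeks, where 0.146% of all genes were called lower and 0.0365% higher in knockout. With so few genes called, this does not set them apart from the class II members, of which only Ciita was called. With both genotypes averaged at 6 days, when Ctss was called, so were Ifngr1, Ifngr2, Psmb8, Erap1 and Tyrobp, with rises of 1.01, 1.03, 0.46, 0.72 and 0.65.

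Of the markers of cells that carry class II, those of macrophages were called most often, and those of B cells not at all. Of 16 macrophage markers 10 rose in wild type at 2 weeks (4.81% of all genes). Among them were Lyz2, lysozyme, at 3.07 ± 0.41, Tyrobp, a signalling adaptor, at 1.31 ± 0.17, Cx3cr1 at 1.24 ± 0.24 and Itgam at 1.20 ± 0.20. Of these 16, Lyz2, Tyrobp and Ccr2 were called lower in knockout than in wild type at 2 weeks (0.146% of all genes). Their differences were -2.82, -1.39 and -0.82. In wild type the macrophage list mean was 6.59 and 6.49 untreated and 7.27 and 7.40 at 2 weeks, and in knockout 6.56 and 6.46 and then 6.46 and 6.84. Knockout 2 weeks replicate 1 was thus low in this list as in the members. The same array had the lowest podocyte, glomerular endothelial and mesangial list means of all 16, at 9.19, 8.98 and 8.19, against 10.94, 10.74 and 9.68 in replicate 2, and the part of this in its low member values was not tested.

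Of 10 dendritic cell markers 1 rose in wild type at 2 weeks (4.81% of all genes), Itgax (CD11c), by 1.08 ± 0.13. It was lower in knockout at 2 weeks by 0.96 ± 0.13 (limma adjusted p = 0.0299). Of 9 B cell markers 0 were called. Their list means were 4.97 and 5.0 in untreated wild type and 5.07 and 5.27 at 2 weeks. These are low levels, near the lower quartile of gene means (4.74). Fcrla and Fcer2a had the smallest p-values with 0.28 ± 0.08 and 0.46 ± 0.17. Of 8 T cell markers Cd5 rose by 0.52 ± 0.12, and of 8 neutrophil markers 0 were called (Csf3r 0.36 ± 0.13, Mmp8 0.26 ± 0.16). The part of these cells in the levels of the members was not tested.

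The make-up of the extracts moved as well. In wild type the proximal tubule list mean was 15.61 and 16.24 untreated and 13.13 and 14.53 at 2 weeks, and 4 of its 10 genes fell (3.23% of all genes were called lower), among them Kap by 2.90. In knockout it was 15.76 and 15.97 untreated, and 15.51 and 13.87 in replicates 1 and 2 at 2 weeks. The podocyte list mean was 10.61 and 9.80 and then 10.76 and 11.09 in wild type, and 9.24 and 9.74 and then 9.19 and 10.94 in knockout, with 0 of 7 genes called in wild type at 2 weeks (Cdkn1c 0.51 ± 0.33, Nphs1 1.26 ± 0.83). Of the distal nephron list Pvalb fell in wild type at 2 weeks, of the endothelial list Plvap did, and of the 5 mesangial genes 0 were called (Itga8 1.48 ± 0.55, Des 1.13 ± 0.44). Kap, listed also among male-biased kidney genes, was the 1 of those 8 called, and Akr1c18 was the 1 of 5 female-biased genes called, with -6.17 ± 1.32. The part of tubule content in the levels of the members was not tested.

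**Figure D3:**
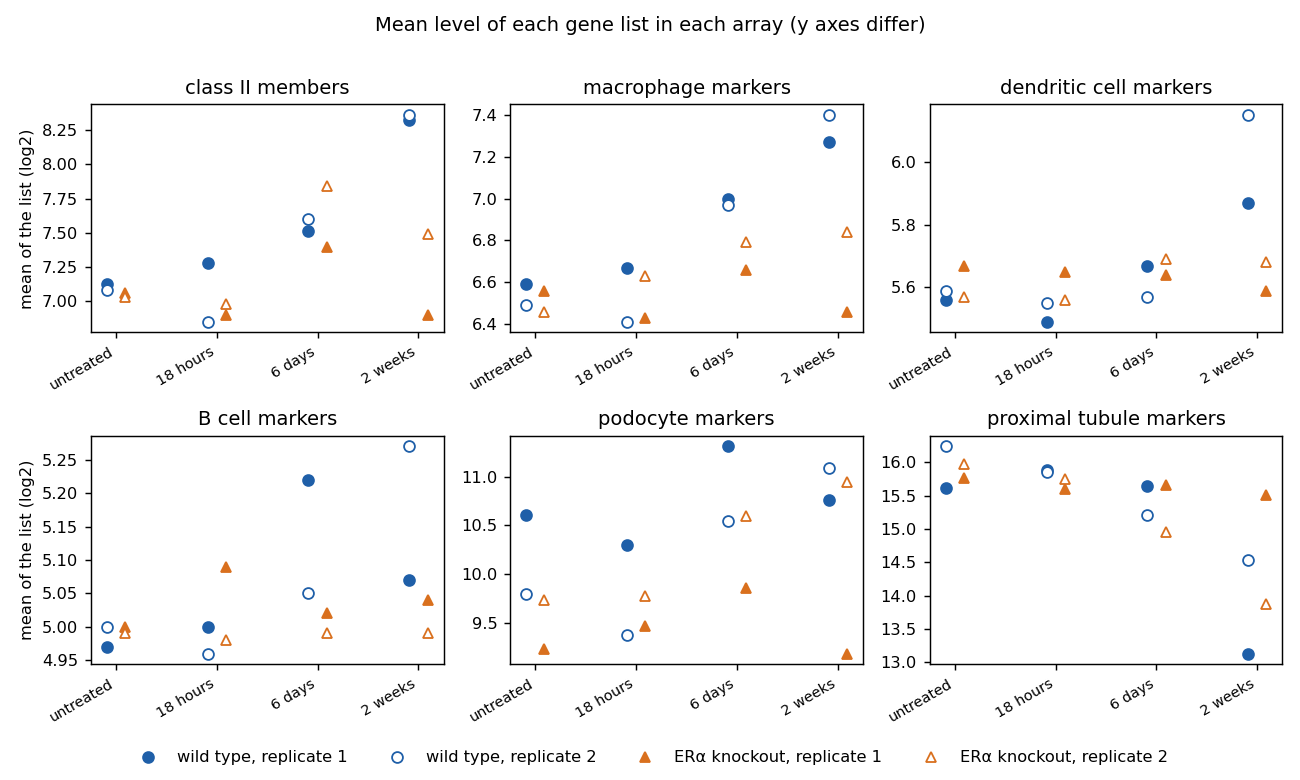
Mean deposited log2 level of the measured members and of 5 marker lists on each array, by time after serum (blue circles, wild type; orange triangles, knockout; filled, replicate 1; open, replicate 2). The members, the macrophage list and the dendritic cell list are highest in the 2 wild type arrays at 2 weeks, and knockout 2 weeks replicate 1 lies low for the members and macrophages, with a proximal tubule list mean above those of the other 3 arrays at 2 weeks.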

How the data were processed

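RNA from glomerular extracts was amplified from 10 ng with the Affymetrix WT Pico kit, per the labels' protocols, and hybridised to 1 array per mouse. The deposited table holds log2 values of 72688 probesets, summarised and normalized by the authors, with Affymetrix Expression Console and Transcriptome Analysis Console named per the submitters' processing notes. No version or setting of either is given in the sources used here. Values ran from 2.22 to 19.93 and array medians from 5.57 to 5.9. Arrays of a group correlated at 0.9662 to 0.9918, and their number limits the precision.

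Of the probesets, 30604 carry 1 symbol and were used. Those with several (2146) or none (39938) were left out. The probeset with the highest mean over 16 arrays stood for a gene (30142 genes). Old symbols were updated by Entrez identifier (827 probesets). A limma 3.58.1 model (R 4.3.3) held 8 group means (8 residual degrees of freedom) and an intensity trend, with Benjamini-Hochberg over all genes within a comparison. Called means an adjusted p under 0.05, and each ± is the standard error of that fit. The procedure was tested on simulated data.

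The members, the 19 gene lists and the comparisons were chosen with earlier results of these data known. All members are named in the main comparisons. Of other lists, up to 4 called genes with the largest change, or values of those with the smallest p, are named, and 6 genes by likeness. Alternatives left out dim genes or each array in turn, used quantile normalization, median centring, no trend, the mean of probesets, a replicate block or only the groups compared. Settings with 14, 13 and 12 arrays were chosen after values were seen. Mice are labelled as separate animals, on 1 array each, so p-values rest on the spread between arrays of a group. This spread was pooled over all groups, including the pairs of arrays that were discordant by Abcc3 or Havcr1 (above). It can therefore hold more than the spread between mice of 1 genotype treated alike.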

Additional observations from a re-analysis of the deposited data

How the results depend on the processing

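With 2 arrays per group most counts of members called move by a few. Under alternatives to the fit, no member's called change turned direction. Of 3454 member changes 3301 kept their side of the threshold, 125 lost a call and 28 gained one. Most of the 3454 were not called in the main fit and had no call to lose. The 3301 therefore do not measure how stable the calls were. For wild type at 2 weeks (6 called) leaving out 1 array gave 0 to 7. For both genotypes averaged at 2 weeks (6 called) it gave 0 to 7, quantile normalization 3, median centring 2, only the groups compared 0, and 14 or 12 arrays 3. With the replicate block that count was 3. Differences between replicates 1 and 2 correlated at -0.679 to 0.593 over 28 pairs of groups, 11 of them over 0.1. Their signs were mixed and the discordant arrays enter them, so they cannot decide whether replicate numbers pair the mice. For both genotypes averaged at 6 days (1 called) leaving out 1 array gave 0 to 1. For knockout minus wild type at 2 weeks (1 called) it gave 0 to 7, and median centring, only the groups compared, and 14, 13 or 12 arrays gave 0 each. Leaving out dim genes also gave 0, because Ciita itself was then not tested. For the average over times (0 called) leaving out 1 array gave 0 to 4, and 14 or 13 arrays 1. For the difference of responses at 2 weeks (0 called) leaving out 1 array gave 0 to 3. The other comparisons kept 0 under all alternatives run. Median centring lowered every change in wild type at 2 weeks by 0.214 (H2-Ab1 2.32, Ciita 0.76, H2-Oa 0.03), and all 8 stayed above 0. The cause of the lost calls was not tested.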
